A study of Rattus norvegicus with 6 samples.

Results

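The cell cycle and DNA replication genes were 46 genes chosen by symbol for their known roles, and all 46 were found among the 22608 symbols of the table. They comprise 10 genes of the G1/S transition, 12 of DNA replication in S phase, 18 of G2 and mitosis (G2/M) and 6 inhibitors of cyclin-dependent kinases (CDKs). The libraries were made from poly(A) RNA of primary astrocytes from rat brain, 3 treated with β-hydroxybutyrate (BHB), a ketone body made by the liver, and 3 left as controls. The BHB dose in the column names is 2 mM, and the time of treatment, the age and strain of the rats and the length of culture are not stated in the sources at hand. Nothing in the labels tells whether libraries of one group are separate cultures, so p-values measure the spread between libraries, which may be technical.

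A cell enters the cycle when D-type cyclins with CDK4 and CDK6, and then E-type cyclins with CDK2, phosphorylate the retinoblastoma protein RB and release E2F factors, which switch on the genes of DNA replication. CDK inhibitors of the INK4 and CIP/KIP families hold this step back. Later in the cycle A- and B-type cyclins with CDK1, the factor FOXM1 and MuvB complexes drive the genes of mitosis. Astrocytes of the adult brain rarely divide, whereas those taken from young rodents multiply in culture.

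Promoter windows were searched for the letters that E2F, MuvB and NF-Y are known to bind, and those of Top2a, Ccnb2, Cdk1 and Mcm5 are printed as examples of the G2/M and S phase classes. RefSeq windows of 250 bases before to 50 after the gene start (build GRCr8) were matched to 33 of the 46 members. Each is printed 5′ to 3′ on the strand of the gene. Capitals mark, on either strand, the E2F letters TTCGCGC or TTGGCGC or TTCCCGC or TTGCCGC, the cell cycle homology region (CHR) letters TTTGAA or TTCGAA, and the CCAAT box, which NF-Y binds. Neighbouring matches can overlap.
Top2a, chr10:84473044-84473343, minus strand: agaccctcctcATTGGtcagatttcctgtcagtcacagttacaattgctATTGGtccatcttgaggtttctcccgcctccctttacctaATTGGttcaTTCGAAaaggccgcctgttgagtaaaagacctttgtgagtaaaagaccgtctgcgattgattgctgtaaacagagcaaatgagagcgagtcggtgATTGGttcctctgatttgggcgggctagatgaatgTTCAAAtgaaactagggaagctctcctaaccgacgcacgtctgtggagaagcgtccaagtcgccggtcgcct
Ccnb2, chr8:79981609-79981908, minus strand: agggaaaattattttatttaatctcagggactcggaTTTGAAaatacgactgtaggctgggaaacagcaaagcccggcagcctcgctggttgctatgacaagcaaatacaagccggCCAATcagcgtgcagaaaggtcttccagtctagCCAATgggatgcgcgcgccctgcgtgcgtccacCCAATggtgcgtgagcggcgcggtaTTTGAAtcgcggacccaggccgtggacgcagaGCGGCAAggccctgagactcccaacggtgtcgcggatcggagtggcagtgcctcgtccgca
Cdk1, chr20:19265043-19265342, plus strand: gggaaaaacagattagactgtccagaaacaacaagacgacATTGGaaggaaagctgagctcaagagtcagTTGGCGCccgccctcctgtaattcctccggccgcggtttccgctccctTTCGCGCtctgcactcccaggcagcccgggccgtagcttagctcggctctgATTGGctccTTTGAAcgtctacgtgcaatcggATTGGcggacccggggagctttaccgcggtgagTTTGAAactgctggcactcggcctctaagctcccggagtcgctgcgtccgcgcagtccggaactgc
Mcm5, chr19:13488563-13488862, plus strand: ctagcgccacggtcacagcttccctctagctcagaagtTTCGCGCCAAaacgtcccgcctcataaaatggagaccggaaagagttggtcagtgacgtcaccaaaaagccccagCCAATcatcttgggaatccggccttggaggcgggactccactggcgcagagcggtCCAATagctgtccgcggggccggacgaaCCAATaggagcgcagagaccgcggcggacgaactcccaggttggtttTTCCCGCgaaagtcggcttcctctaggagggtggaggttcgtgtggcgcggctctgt

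Top2a had CHR letters 22 bases before the start (position -22) and CCAAT letters at -57, and Ccnb2 had them at -43 and at -68. Mcm5 had E2F letters at -7. Ccnb2 (at -11) and Cdk1 (at -180 and -132) also had E2F letters, which most G2/M windows lacked. E2F letters were found in 8 of 9 S phase windows (88.9%) and 3 of 14 G2/M windows (21.4%), against 9.52% of all 33469 rat windows and 17.5% of the 10122 windows of the genes tested here. CHR letters were found in 9 of 14 G2/M windows (64.3%) and 3 of 9 S phase windows (33.3%), against 19.7% of all windows and 13.6% of those of tested genes. CCAAT letters were found in 11 of 14 G2/M windows (78.6%) and 6 of 9 S phase windows (66.7%), against 37.5% and 37.8%. These matches describe the windows and are not shown binding sites.

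The astrocyte label was checked against 12 astrocyte markers, which were all at 1 FPKM or more on average, with Fabp7 the highest. Their summed level ran from 5329 to 5342 FPKM in BHB libraries and from 4913 to 5170 FPKM in control libraries, and they include the glutamate transporter gene Slc1a3, at 455.2 ± 11.6 FPKM with BHB and 202.7 ± 5.0 FPKM in controls (SD, n = 3 each). The 12 microglial markers summed to 58.0 to 59.7 FPKM in BHB libraries and 56.6 to 61.2 FPKM in control libraries, and the 10 oligodendrocyte lineage markers to 95.1 to 99.1 FPKM in BHB libraries and 92.5 to 97.9 FPKM in control libraries. The 10 fibroblast and mural markers reached 4639 to 5023 FPKM in BHB libraries and 4485 to 4860 FPKM in control libraries, mostly from Tagln and Acta2. Of these 10, 8 averaged 1 FPKM or more, among them the collagen genes Col1a2 (266 ± 15.7 FPKM with BHB and 271 ± 11.8 FPKM in controls) and Col1a1 (100.4 ± 8.53 FPKM with BHB and 98.8 ± 2.25 FPKM in controls, SD, n = 3 each), while Dcn and Lum were under 1 FPKM. The 10 neuron markers summed to 85.5 to 87.4 FPKM in BHB libraries and 86.3 to 89.0 FPKM in control libraries, mostly from Stmn2, and the 6 ependymal markers to 33.0 to 35.7 FPKM in BHB libraries and 35.2 to 39.0 FPKM in control libraries. No endothelial marker reached 1 FPKM, and Cldn5 was at 0. The libraries had 12288 to 12312 genes at 1 FPKM or more.

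The cultures expressed genes of every phase of the cycle. Of the 46 members, 44 reached 1 FPKM in at least 3 of the 6 libraries and were tested, and the 2 others were the INK4 inhibitor genes Cdkn2a and Cdkn2b. FPKM divides the fragments of a gene by transcript length and by the fragments of the library, so levels can be set side by side between genes. Averaged over the 6 libraries, the most abundant members were the cyclin D2 gene Ccnd2 (117 FPKM), the kinase gene Cdk4 (106 FPKM) and the replication clamp gene Pcna (103 FPKM). All 18 G2/M genes lay between 15.5 FPKM (the kinase gene Aurka) and 72.0 FPKM (Cdk1). The lowest tested members were the replication licensing gene Cdc6 (3.61 FPKM) and the inhibitor gene Cdkn1c (3.87 FPKM).

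BHB gave no member a difference that passed the test. The test was limma on log2(FPKM + 1) across 12373 genes, two-sided, with Benjamini-Hochberg adjustment over all of them and a threshold of 0.05. It called 7 genes of the table (0.0566%), 6 higher (0.0485%) and 1 lower (0.00808%), and 0 of the 44 members, whose adjusted p ran from 0.881 to 0.997. At an unadjusted p under 0.05 there were 4 members, 2 higher (Cdk4 and Cdc6) and 2 lower (Ccne1 and Top2a), which is 9.09% of those tested beside 5.59% of all genes (3.45% higher and 2.14% lower). The groups did not overlap in 8 of the 44 members (18.2%), 5 higher and 3 lower with BHB, beside 10.9% of all genes (6.43% higher and 4.45% lower). The difference of mean FPKM ran from 12.9% lower with BHB (Ccne1) to 18.0% higher (Cdc6).

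The intervals limit how large a change these libraries could have hidden. On the log2(FPKM + 1) scale, which understates changes of low genes, the 95% interval of the fold change lay within 1.5-fold either way for 43 of 44 members, the exception being Cdkn1a, beside 96.7% of all genes. It lay within 1.2-fold for 36 members (81.8%), beside 63.1% of all genes, and for 16 of the 18 G2/M genes. The 8 others were Ccne1, Ccne2, Cdc6, Tyms, Plk1, Tpx2, Cdkn1a and Cdkn1c. The median half-width of the interval was 0.13 for the tested members and 0.17 for all genes on the log2 scale. The larger share of members within 1.2-fold therefore does not by itself mean smaller changes. In these bulk libraries, fewer dividing cells and less of a transcript per cell cannot be told apart.

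**Figure D1:**
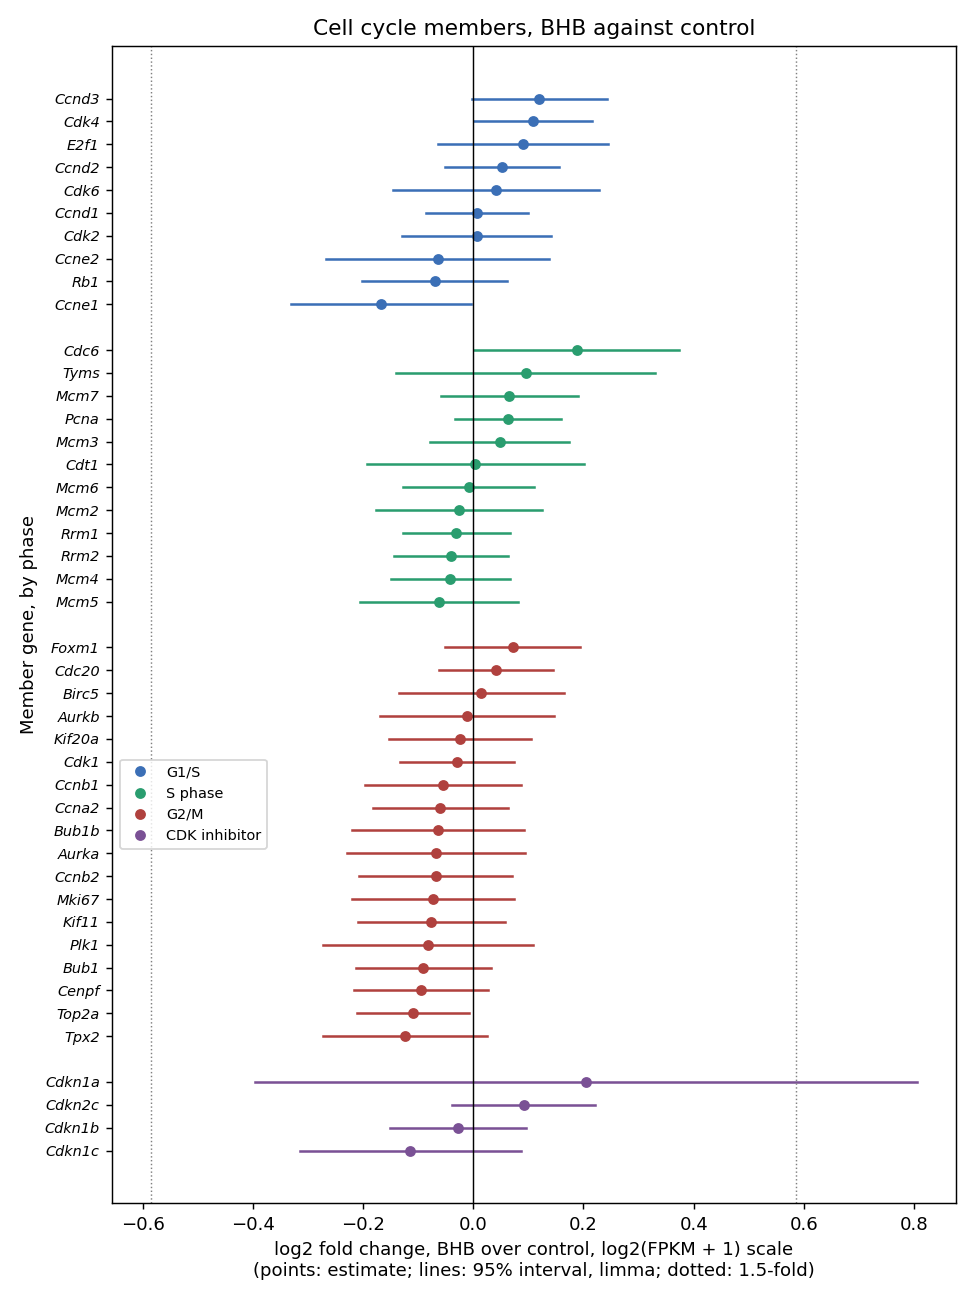
Log2 fold change (x axis, BHB over control, log2(FPKM + 1) scale) of the 44 tested members, grouped and coloured by phase, with 95% intervals from limma and dotted lines at 1.5-fold. Of the 18 G2/M points 15 lie left of 0, and the widest interval, -0.40 to 0.81, is that of Cdkn1a.

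Genes of the G1/S transition lay on both sides of 0, 7 of 10 above it (5 of 10 with libraries scaled to equal FPKM sums, where Ccnd1 and Cdk2 turned, and 5 of 10 without BHB 1), and their median log2 fold change was 0.02, beside 0.0029 for all genes. Control 3 was the lowest library in 6 of the 10 (60.0%), and in 18 of the 44 tested members (40.9%), where it is lowest in 20.3% of all genes. Ccne1, which encodes cyclin E1, the partner of CDK2 at entry into S phase, stood at 5.26, 5.44 and 5.21 FPKM in BHB libraries 1, 2 and 3, against 6.0, 6.60 and 5.66 FPKM in control libraries 1, 2 and 3. All BHB libraries lay below all controls, the nearest pair being BHB 2 at 5.44 and control 3 at 5.66 FPKM. The means were 5.30 ± 0.122 FPKM with BHB and 6.09 ± 0.473 FPKM in controls (SD, n = 3 each), which is a log2 fold change of -0.17 (SE 0.0711, 95% interval -0.33 to -0.0039) that was not called (adjusted p in limma 0.881). Its relative Ccne2, which encodes cyclin E2, stood at 10.5 FPKM with BHB and 11.1 FPKM in controls, with groups that overlapped.

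Cdk4, the kinase that D-type cyclins activate, stood at 106.6, 111.7 and 110.4 FPKM in BHB libraries, against 105.4, 103.1 and 96.4 FPKM in control libraries. The groups were apart, but BHB 1 and control 1 were 106.6 and 105.4 FPKM. The log2 fold change was 0.11 (SE 0.0468, 95% interval 0.00098 to 0.22; 0.07 without control 3), and it was not called (adjusted p in limma 0.881). Ccnd3, which encodes cyclin D3, stood at 40.7, 45.6 and 44.0 FPKM in BHB libraries, against 40.3, 40.4 and 38.9 FPKM in control libraries. Here too the groups were apart, with BHB 1 close to the controls, and the log2 fold change of 0.12 (SE 0.0533, 95% interval -0.0025 to 0.24) was not called (adjusted p in limma 0.881).

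The D-type cyclin genes otherwise stood close to level. Ccnd2 stood at 118, 119 and 120.1 FPKM in BHB libraries, against 121, 112 and 111 FPKM in control libraries, so that control 1 was above every BHB library. Ccnd1, the cyclin D gene most closely tied to growth factor signalling, was at 70.2 ± 0.747 FPKM with BHB and 69.9 ± 1.71 FPKM in controls (SD, n = 3 each), and its 95% interval of -0.09 to 0.10 was the narrowest of the 44 members. The remaining G1/S genes were Cdk2, Cdk6, the transcription factor gene E2f1 and the retinoblastoma gene Rb1. Their log2 fold changes were between -0.07 (Rb1) and 0.09 (E2f1), and their groups overlapped.

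Replication genes were evenly divided, with 6 of 12 above and 6 below 0 (5 above with libraries scaled to equal FPKM sums, where Cdt1 turned) and a median of -0.0024 on the log2 scale. Cdc6, which loads the MCM helicase onto replication origins, stood at 3.77, 4.19 and 3.76 FPKM in BHB libraries, against 3.56, 3.39 and 2.99 FPKM in control libraries. The groups did not overlap. The means were 3.91 ± 0.246 FPKM with BHB and 3.31 ± 0.289 FPKM in controls (SD, n = 3 each), which is a log2 fold change of 0.19 (SE 0.0808, 95% interval 0.0021 to 0.37; 0.23 with a pseudocount of 0.1) that was not called (adjusted p in limma 0.881). Cdt1, which loads the helicase together with CDC6, stood at 7.996 ± 0.485 FPKM with BHB and 7.99 ± 0.898 FPKM in controls (SD, n = 3 each).

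Pcna, the sliding clamp of DNA polymerases, stood at 108.9, 103.2 and 103.2 FPKM in BHB libraries, against 103.1, 99.0 and 99.5 FPKM in control libraries. No BHB library lay below a control, with BHB 2, BHB 3 and control 1 almost level, and the log2 fold change was 0.06 (95% interval -0.03 to 0.16, limma adjusted p = 0.895). The 6 helicase subunit genes Mcm2 to Mcm7 are transcribed together in late G1. Here Mcm3 and Mcm7 lay above 0 and Mcm2, Mcm4, Mcm5 and Mcm6 below it, with log2 fold changes from -0.06 (Mcm5) to 0.07 (Mcm7) and overlapping groups in each. Mcm7 stood at 23.6, 24.0 and 26.0 FPKM in BHB libraries, against 23.8, 23.6 and 22.8 FPKM in control libraries. BHB 3 was the highest library, and the others lay within the range of the controls or close to it.

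Genes of nucleotide supply lay on both sides of 0. Rrm1, the large subunit of ribonucleotide reductase, stood at 96.3, 92.5 and 92.3 FPKM in BHB libraries, against 98.4, 95.9 and 92.8 FPKM in control libraries. The groups overlapped, and the log2 fold change was -0.03 (95% interval -0.13 to 0.07, limma adjusted p = 0.936). Rrm2, the small subunit, which is made mainly in S phase, had a log2 fold change of -0.04. Tyms, which makes thymidylate, had the largest standard error of the class (0.103 on the log2 scale) and ran from 21.8 to 25.6 FPKM in BHB libraries and from 18.4 to 24.1 FPKM in control libraries. Its log2 fold change was 0.09, and -0.019 without control 2.

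**Figure D2:**
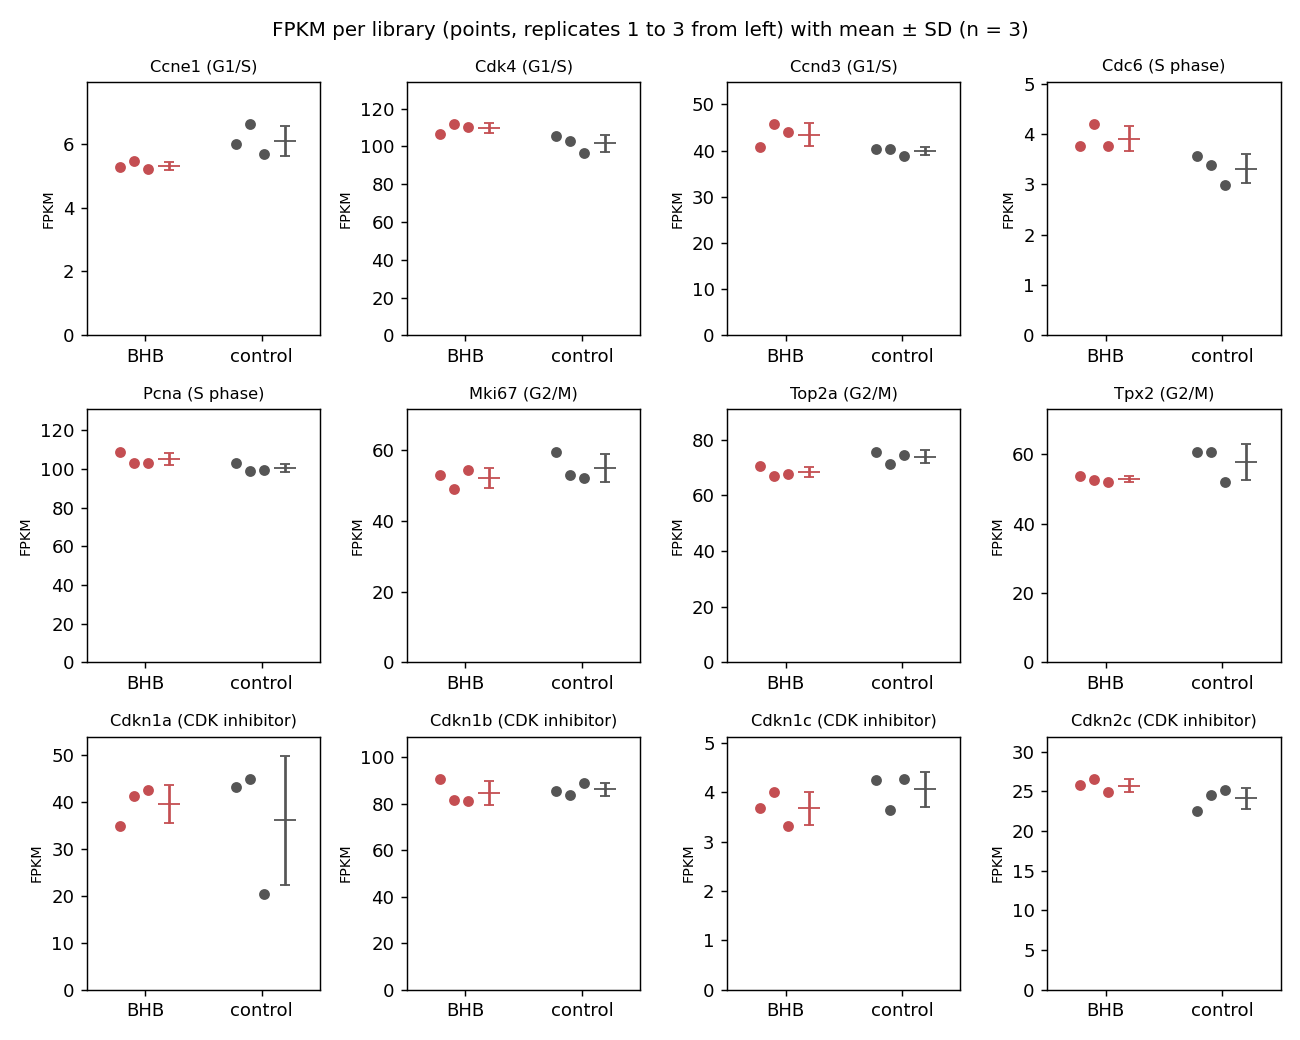
FPKM (y axis, from 0) of 12 members in each library, BHB left of control, with the mean and SD (n = 3) beside the points. The groups separate by small margins in Ccne1, Cdk4, Ccnd3, Cdc6, Pcna and Top2a, and 1 control library of Cdkn1a is at 20.3 FPKM. The 12 include the member of smallest p in each class. Groups do not overlap in 8 of the 44 tested members (18.2%), beside 10.9% of all genes.

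Among the member classes, genes of G2 and mitosis leaned most to one side, by little. Of 18 genes, 15 (83.3%) lay below 0, beside 48.5% of all genes, and the median log2 fold change was -0.07, beside 0.0029 for all genes. No gene of the class passed (lowest limma adjusted p 0.881), and 1 of 18 (5.56%) had an unadjusted p under 0.05, beside 5.59% of all genes. That gene was Top2a, the topoisomerase that untangles sister chromatids, at 70.5, 67.1 and 67.5 FPKM in BHB libraries, against 75.6, 71.1 and 74.6 FPKM in control libraries. All BHB libraries lay below all controls, and BHB 1 and control 2 were 70.5 and 71.1 FPKM. The log2 fold change was -0.11 (SE 0.0444, 95% interval -0.21 to -0.0069), and it was not called (adjusted p in limma 0.881).

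Mki67, the proliferation marker Ki-67, stood at 52.97, 48.9 and 54.3 FPKM in BHB libraries, against 59.5, 52.9 and 52.1 FPKM in control libraries. The groups overlapped, with control 1 above all others. The means were 52.1 ± 2.83 FPKM with BHB and 54.8 ± 4.01 FPKM in controls (SD, n = 3 each), which is a log2 fold change of -0.07 (SE 0.0643, 95% interval -0.22 to 0.07, limma adjusted p = 0.910). Without control 1 it was -0.014 and without BHB 2 it was -0.029. Tpx2, a spindle assembly factor that activates Aurora A, stood at 53.8, 52.7 and 52.0 FPKM in BHB libraries, against 60.8, 60.7 and 51.9 FPKM in control libraries. Control 3 was the lowest library of all, so the groups overlapped, and the log2 fold change of -0.12 (SE 0.0651, 95% interval -0.27 to 0.03) was not called (adjusted p in limma 0.890).

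Cdk1, the kinase that starts mitosis, stood at 71.0, 70.9 and 71.8 FPKM in BHB libraries, against 74.6, 74.7 and 69.1 FPKM in control libraries. The BHB libraries lay inside the range of the controls. Its cyclin genes Ccna2, Ccnb1 and Ccnb2 had log2 fold changes of -0.06, -0.05 and -0.07, with overlapping groups. Cenpf, a kinetochore protein gene, stood at 24.98, 22.6 and 23.4 FPKM in BHB libraries, against 25.8, 24.7 and 25.6 FPKM in control libraries. Only BHB 1 reached into the control range, and the log2 fold change was -0.10 (95% interval -0.22 to 0.03, limma adjusted p = 0.890).

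Spindle checkpoint and mitotic kinase genes were similar in size of difference. Bub1, a checkpoint kinase gene at kinetochores, had log2 fold change -0.09, and its BHB libraries (14.6 to 15.9 FPKM) lay below its control libraries (16.0 to 16.7 FPKM). Plk1, Aurka, Bub1b and the spindle motor gene Kif11 had log2 fold changes from -0.08 to -0.06, with overlapping groups. Aurkb and the cytokinesis kinesin gene Kif20a were nearer to 0, at -0.01 and -0.02. The members above 0 were Foxm1, the transcription factor that activates many genes of this class (18.1 ± 0.242 FPKM with BHB and 17.2 ± 0.809 FPKM in controls, SD, n = 3 each), Cdc20, an activator of the anaphase-promoting complex (log2 fold change 0.04), and Birc5, which encodes survivin (0.01, and -0.0018 with libraries scaled to equal FPKM sums). Foxm1 was higher in each BHB library than in each control.

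The lean of the G2/M class rested in part on single libraries. Control 1 had the highest value of 11 of the 18 genes (61.1%), where it is highest in 16.0% of all genes tested, and BHB 2 had the lowest value of 8 (44.4%), where it is lowest in 18.2%. Control 3 was lowest in 7. The summed level of the 18 genes was 668, 647 and 664 FPKM in BHB libraries 1 to 3, against 711, 689 and 657 FPKM in control libraries 1 to 3, so that control 3 lay inside the BHB range. Without control 1 the median log2 fold change was -0.02 with 13 of 18 below 0, and without BHB 2 it was -0.03 with 16 of 18 below 0. Without control 1, Aurka stood at -0.00059 and Ccnb2 at -0.013 on the log2 scale, and without control 2 Plk1 stood at -0.019. The summed markers of microglia, of the oligodendrocyte lineage and of fibroblast and mural cells overlapped between groups. The astrocyte sum was higher in BHB libraries (5329 to 5342 FPKM) than in control libraries (4913 to 5170 FPKM). It includes Slc1a3, at 455.2 ± 11.6 FPKM with BHB and 202.7 ± 5.0 FPKM in controls (SD, n = 3 each). The gap in the astrocyte sum therefore does not by itself mean a different share of astrocytes. The part of cell composition in the G2/M values was not tested.

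Part of this variation was common to the class. The mean Pearson correlation between pairs of genes over the 6 libraries was 0.31 for the 18 G2/M genes, 0.07 for the 12 S phase genes, -0.05 for the 10 G1/S genes, -0.21 for the 4 tested inhibitors and 0.0015 for all 12373 genes. These are descriptions, since the pairs share the same 6 libraries and any difference of composition between them. The correlations run over both groups, so they also hold any shared difference between BHB and control. Control 1 was on average 0.07 above and BHB 2 0.06 below the 6-library mean of the G2/M genes on the log2 scale (mean deviations 0.07 and -0.06).

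**Figure D3:**
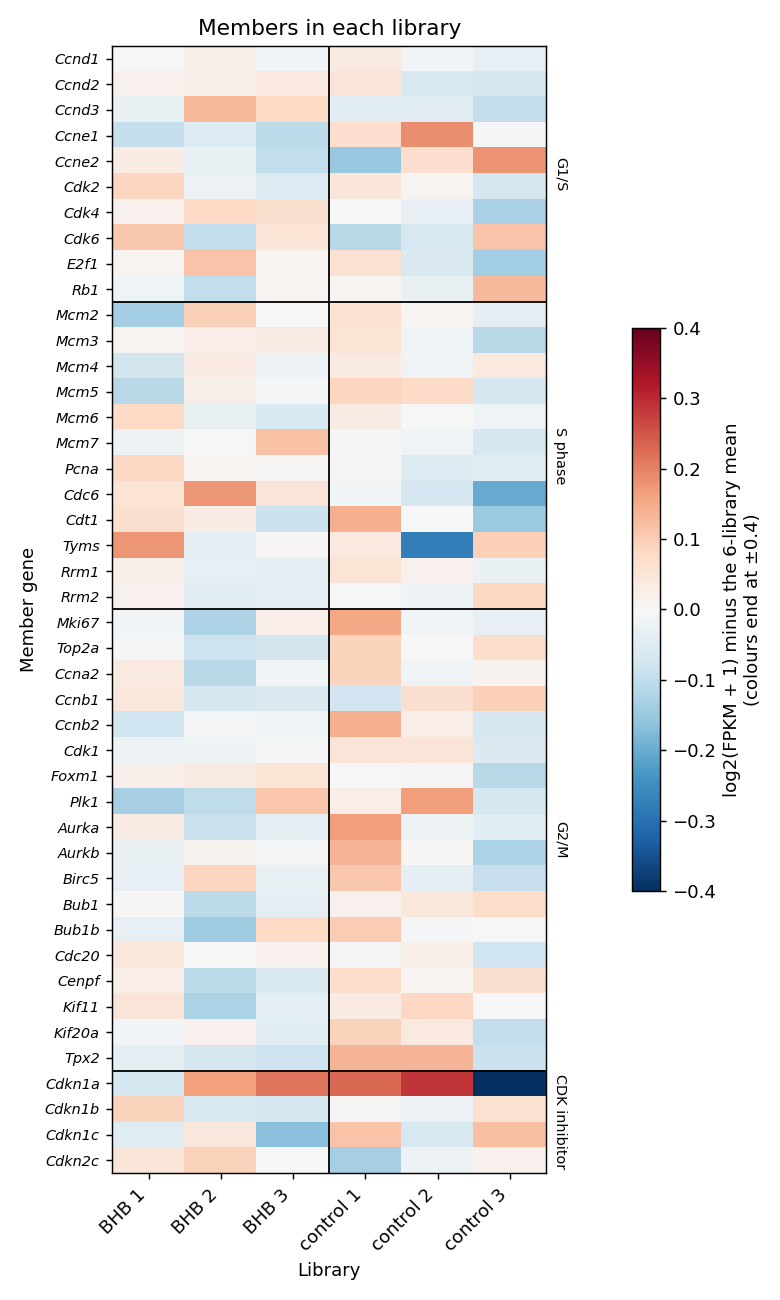
Deviation of log2(FPKM + 1) from the 6-library mean (colour) for the 44 tested members (rows, by phase) in each library (columns, BHB left of control). Control 1 is red in most G2/M genes and BHB 2 blue in many, while Cdkn1a in control 3 is the darkest cell.

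Among the CDK inhibitors, Cdkn1a set a single library apart. Cdkn1a encodes p21, which p53 and other stress signals induce and which blocks CDK2. It stood at 34.9, 41.3 and 42.7 FPKM in BHB libraries, against 43.3, 45.003 and 20.3 FPKM in control libraries. Control 3 was below every other library, the nearest of which, BHB 1, was 1.72 times as high, while controls 1 and 2 were above all BHB libraries. The log2 fold change was 0.20 (SE 0.262, 95% interval -0.40 to 0.81, limma adjusted p = 0.930), and without control 3 it turned to -0.16 (limma adjusted p = 0.896).

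No other tested gene of the p53 pathway lay as far below the next library in control 3 as Cdkn1a did. Over these other genes the mean deviation from the 6-library mean was lowest in control 3, at -0.04 on the log2 scale. That of Cdkn1a was -0.82. Of 21 such genes tested, 4 were lowest in control 3 (19.0%, where 20.3% of all genes are), and the largest gap below the next library was 1.14-fold, in Plk2. Among 6401 genes of at least 10 FPKM on average, 50 had 1 library at least 1.5-fold below all others, 6 of them in control 3. The deposited values of Cdkn1a have more than 6 decimals, whereas 23 of the 44 tested members have at most 6, and RefSeq lists 4 transcripts for it. The part of either in this value was not tested.

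None of the 4 tested inhibitors passed in limma, Cdkn1a included. Cdkn1b, which encodes p27, the inhibitor of resting cells, stood at 90.8, 81.8 and 81.4 FPKM in BHB libraries, against 85.7, 83.9 and 89.1 FPKM in control libraries. The groups overlapped (log2 fold change -0.03, 95% interval -0.15 to 0.10, limma adjusted p = 0.956). Cdkn2c, which encodes the CDK4 and CDK6 inhibitor p18, stood at 25.7, 26.6 and 24.9 FPKM in BHB libraries, against 22.6, 24.5 and 25.2 FPKM in control libraries. Control 3 lay between BHB libraries, and the log2 fold change of 0.09 (95% interval -0.04 to 0.22) was not called (adjusted p in limma 0.890).

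Cdkn1c, which encodes p57, was less abundant than these genes, at 3.69, 4.01 and 3.32 FPKM in BHB libraries, against 4.26, 3.65 and 4.28 FPKM in control libraries. The groups overlapped (log2 fold change -0.11, 95% interval -0.31 to 0.09, limma adjusted p = 0.898). Cdkn2a, whose products p16 and ARF mark senescent cells, was listed at 0.409 FPKM in BHB 1, 0.0840 FPKM in control 3 and 0 in the other libraries. Cdkn2b, which encodes p15 and responds to TGF-beta in epithelial cells, stood at 0.114, 0.130 and 0.467 FPKM in BHB libraries, against 0.432, 0.588 and 0.523 FPKM in control libraries. The groups overlapped, with means of 0.237 FPKM with BHB and 0.514 FPKM in controls, and at this level neither gene was tested. The 4 tested inhibitors had a median log2 fold change of 0.03, which was -0.04 without control 3.

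Other genes of the same pathways were taken from lists chosen by function. Of 61 further mitosis genes tested, 42 (68.9%) lay below 0, beside 48.5% of all genes. Their median log2 fold change was -0.05, and 0 passed in limma. At an unadjusted p under 0.05 there were 7, 1 higher and 6 lower, or 11.5% beside 5.59% of all genes. Leaving out a library gave medians from -0.09 (without BHB 1) to -0.03 (without BHB 2, with 38 of 61 below 0). Among genes with values of at most 6 decimals, 10 of 18 lay below 0, with a median of -0.03. Nusap1, a spindle microtubule protein gene, stood at 41.3, 40.4 and 39.9 FPKM in BHB libraries, against 47.0, 45.3 and 44.2 FPKM in control libraries. BHB and control libraries did not overlap, and its log2 fold change of -0.16 (95% interval -0.26 to -0.06) was not called (adjusted p in limma 0.881). Tacc3, which steadies spindle fibres, was at 22.4 ± 0.782 FPKM with BHB and 25.04 ± 1.24 FPKM in controls (SD, n = 3 each).

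In the other direction, Wee1, the kinase that holds CDK1 inactive before mitosis, stood at 6.83, 6.09 and 6.28 FPKM in BHB libraries, against 5.70, 5.10 and 5.26 FPKM in control libraries. The groups did not overlap, and the log2 fold change of 0.22 (95% interval 0.06 to 0.39) was not called (adjusted p in limma 0.881). Cenpa, the centromeric histone gene, was next, at 0.08, with overlapping groups. Over the 61 genes control 1 was highest in 23 (37.7%) and BHB 2 lowest in 19 (31.1%), and the mean pairwise correlation over the 6 libraries was 0.13.

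Of 48 further replication genes tested, 21 lay above and 27 below 0, with a median log2 fold change of -0.01, and 0 passed in limma (1 at an unadjusted p under 0.05, or 2.08%). Gins4, a subunit of the replicative helicase complex, was at 14.1 ± 0.377 FPKM with BHB and 12.7 ± 0.689 FPKM in controls (SD, n = 3 each), which is a log2 fold change of 0.14, and the chromatin assembly gene Chaf1a was at 12.8 ± 0.598 FPKM with BHB and 11.6 ± 0.557 FPKM in controls (SD, n = 3 each). The clamp loader gene Rfc3 and the helicase gene Mcm8 had log2 fold changes of -0.21 and -0.16. None of the 4 passed (limma adjusted p 0.881 to 0.887).

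Of 30 further G1 and RB-E2F genes tested, 10 lay above and 20 (66.7%) below 0, beside 48.5% of all genes below 0. Their median was -0.04, close to that of the further mitosis genes (-0.05). In limma 0 passed (1 at an unadjusted p under 0.05, or 3.33%). Lin37, a subunit of the MuvB core that represses cell cycle genes in resting cells, had a log2 fold change of 0.20, and Tfdp1, the partner of E2F factors, 0.11. Skp2, which marks p27 for destruction, and Ccnh, the cyclin of the CDK-activating kinase, both had -0.15 (limma adjusted p 0.881 to 0.882 for the 4 genes). Of 21 p53 pathway genes tested, 11 lay above and 10 below 0, with a median of 0.03, and 0 passed in limma (3 at an unadjusted p under 0.05, or 14.3% beside 5.59% of all genes). Btg2, an antiproliferative early response gene, was at 21.999 ± 0.207 FPKM with BHB and 19.1 ± 1.13 FPKM in controls, while Rrm2b, a ribonucleotide reductase subunit induced by p53, was at 4.20 ± 0.243 FPKM with BHB and 5.10 ± 0.0869 FPKM in controls (SD, n = 3 each). Their log2 fold changes were 0.19 and -0.23. Plk3 had 0.19 and the sestrin gene Sesn1 -0.19. Neither these nor the other p53 pathway genes passed (lowest limma adjusted p 0.881).

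**Figure D4:**
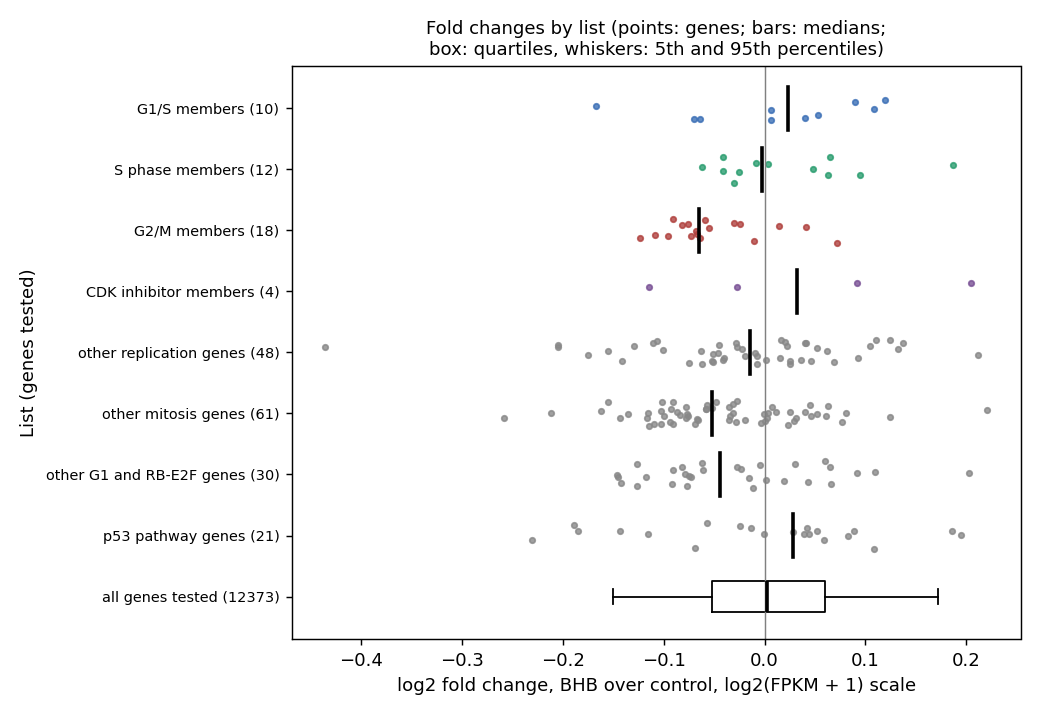
Log2 fold change (x axis, BHB over control) of each tested gene in the 4 member classes and 4 further lists, with black bars for medians and a box for all 12373 genes (quartiles, whiskers at the 5th and 95th percentiles). The medians of the 2 mitosis lists, -0.07 and -0.05, and of the further G1 and RB-E2F genes, -0.04, lie furthest left of 0. That of all genes is 0.0029.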

How the data were processed

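The authors deposited 1 table of FPKM values, a measure per transcript length and per library size, with 22608 gene symbols and a column per library. The submitters' processing notes name bcl2fastq 2.0, HISAT2, StringTie and the build rn6, and per the labels the libraries were made from oligo-dT purified RNA. The annotation, strand setting and handling of shared reads are not stated in the sources at hand, so near-identical copies may share reads. Depth is unknown, and FPKM cannot be tested as counts.

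Values were taken as log2(FPKM + 1), unscaled. Genes at 1 FPKM or more in at least 3 of 6 libraries were fitted with limma 3.58.1 in R 4.3.3 (eBayes with trend), two-sided, Benjamini-Hochberg over all genes tested. The code of the fit was checked on simulated independent normal noise with the fitted variances. This does not measure its power for the small differences described here. Intervals are 95% limma intervals. The members, classes, lists and tests were chosen with earlier results of these data known. Values per library are given for Mki67, Top2a, Cdkn1a and, in each class, the 3 members with the smallest p and the 2 most abundant; from other lists the 2 genes with the smallest p in each direction are named. Ccnb1, Ccnd1, Cdkn2a and other members beyond this rule were chosen after their values were seen. Promoter letters were searched in Python 3.11.15. Alternatives were the pseudocount, the filter, scaling, the variance model, a replicate block, values of at most 6 decimals, and leaving out each library.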

Additional observations from a re-analysis of the deposited data

How the results depend on the processing

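No tested member passed in any of the 16 settings (lowest adjusted p 0.685, without BHB 1), and 32 of the 44 kept their direction in all that tested them. Leaving out 1 library turned the direction of the 12 others and shrank the log2 fold change of 26 more by over 1.5 times. The 6 members that neither turned nor shrank so far were Ccnd3, Ccne1, Cdc6, Top2a, Cenpf and Tpx2. With libraries scaled to equal FPKM sums Ccnd1 turned to -0.0099, Cdk2 to -0.0100, Cdt1 to -0.011 and Birc5 to -0.0018, and quantile normalization turned Cdk2 to -0.0025 and Cdt1 to -0.0077. Leaving out a library gave log2 fold changes of -0.00811 to 0.0258 for Ccnd1, -0.16 to 0.00934 for Ccne2, -0.0355 to 0.0344 for Cdk2, -0.00420 to 0.11 for Cdk6, -0.0801 to 0.0363 for Mcm2, -0.0504 to 0.0200 for Mcm6, -0.0689 to 0.0755 for Cdt1, -0.0193 to 0.17 for Tyms, -0.0759 to 0.0550 for Aurkb, -0.0283 to 0.0715 for Birc5, -0.0782 to 0.0151 for Kif20a and -0.16 to 0.40 for Cdkn1a. Over all genes the 7 calls became 4 without the eBayes trend, where the cause was not tested, 2 with the replicate block, with fewer residual degrees of freedom, and 2 among genes of at most 6 decimals, where fewer genes are tested; leaving out a library gave 5 to 10. With at most 6 decimals the median of the G1/S class was 0.072 and that of the inhibitors 0.092 (Cdkn2c alone), as fewer members are tested. Leaving out a library gave medians of 0.0027 to 0.037 for G1/S, -0.016 to 0.041 for S phase, -0.079 to -0.021 for G2/M and -0.044 to 0.057 for the inhibitors. Whether equal replicate numbers mark paired libraries could not be decided. Deviations from the group means correlated at -0.09, 0.16 and -0.15 for numbers 1, 2 and 3. BHB 1 correlated best with control 3 (0.20), BHB 2 with control 2 (0.16) and BHB 3 with control 1 (0.19). With 3 libraries per group the deviations within a group are tied to each other, so these correlations cannot settle it. Sets shared under other numbers are possible and were not tested. No member passed with the replicate block. Depth is unknown, so small changes of low genes such as Cdkn2a and Cdkn2b could not be judged.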
